A study of Homo sapiens with 27 samples.

Results

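The 9 transcripts described here are core targets of the transcription factor p53: CDKN1A, MDM2, BBC3, BAX, FAS, TNFRSF10B, SESN1, ZMAT3 and TP53INP1. They were chosen by gene symbol, with earlier results of these data known. All 9 were found among the 26255 symbols listed in every library. RNA-seq covered 27 libraries from SW480, DLD-1 and HCT116 cells, which are human colorectal cancer (CRC) lines. Each line had 3 groups of 3 libraries: cells resistant to 5-fluorouracil (5-FU res), cells resistant to oxaliplatin (OX res) and untreated parental cells (WT). Resistant cells had been kept for about 6 months in 5 to 70 µM 5-FU or 5 to 35 µM OX, as the series text gives it for all 3 lines. The methods describe a stepwise rise of either drug for HCT116 and SW480 and do not describe DLD-1. In these names WT means untreated and says nothing of the p53 genotype. By general knowledge, SW480 and DLD-1 carry mutant p53 and HCT116 carries wild-type p53. The labels do not give the genotype, and the lines differ in much else, so a comparison between lines compares these lines and not p53 states alone. The library names of DLD-1 stand in another number series than those of the other lines, so that line and a batch cannot be told apart. Whether 3 cultures stand behind the 3 libraries of a group is not stated, nor how many separately selected populations a resistant group holds. A p-value here therefore reflects the scatter of these libraries alone, and that scatter may be technical.

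p53 is a transcription factor that is kept at a low level by the ubiquitin ligase MDM2 and accumulates when DNA is damaged or when ribosome assembly is disturbed. It binds DNA as a tetramer and switches on genes that stop the cell cycle, promote apoptosis, repair DNA and limit oxidative stress. MDM2 is itself a target and closes a negative feedback loop. 5-FU blocks thymidylate synthase and is built into RNA and DNA, and OX forms platinum adducts on DNA, and both drugs are known to activate p53 in cells with the wild-type protein. Many p53 mutants of tumours have lost sequence-specific binding to DNA. Several of the 9 genes, CDKN1A among them, are also known to respond to factors other than p53.

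The p53 full site joins 2 copies of a motif of 10 bases, each with a core of 4 bases, a C, then A or T at each of the next positions, then a G. Around the start site of each gene's canonical transcript, 3 kb on either side were searched in the GRCh37 reference for adjacent motifs with both cores intact and up to 3 mismatches in all. The pattern is its own reverse complement, so 1 search covers both strands. The matches below are printed because they show the DNA pattern that defines this gene family, on the strand of the gene and with both cores in capitals.
CDKN1A: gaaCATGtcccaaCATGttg
CDKN1A: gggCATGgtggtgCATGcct
BBC3: ctgCAAGtcctgaCTTGtcc
FAS: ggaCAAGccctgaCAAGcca
ZMAT3: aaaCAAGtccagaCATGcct
The first CDKN1A match lay at chr6:36644226-36644245 on the plus strand, 2255 bases upstream of the start site, with 2 mismatches, outside the canonical transcript but overlapping an exon of 1 other annotated transcript of the gene. It is the distal response element of CDKN1A known from earlier work. The second, at chr6:36643656-36643675, lay 2825 bases upstream, outside every annotated CDKN1A transcript, with 3 mismatches. The BBC3 match, at chr19:47734577-47734596 on the minus strand, lay 131 bases upstream with 3 mismatches, outside the canonical transcript and within the span of 3 others. The FAS match, at chr10:90751066-90751085 on the plus strand, lay in intron 1, 662 bases downstream of the start site, with 2 mismatches. The ZMAT3 match, at chr3:178787976-178787995 on the minus strand, lay in intron 1, 1611 bases downstream, with 0 mismatches. TNFRSF10B also had a match, in intron 1 and 399 bases downstream, with 2 mismatches. A match was thus present for 5 of the 9 genes (55.6%), for 30 of 71 other p53 targets (42.3%) and for 2855 of 18018 protein-coding genes (15.8%). With up to 2 mismatches the counts were 4 of 9 (44.4%), 18 of 71 (25.4%) and 514 of 18018 (2.85%). A match is a run of letters and not a measured binding site, and MDM2, BAX, SESN1 and TP53INP1 had none in this window.

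The deposited values are FPKM, fragments scaled by transcript length and by mapped reads. Each was divided by its library's sum to give TPM, the gene's share of all transcripts, a level that can be compared between genes. The depth is unknown, as no source used here gives the reads of a library, so no counting error could be computed and the precision is the spread between libraries. Libraries of the same group correlated at 0.991 to 0.995 (Pearson, log2(TPM + 1), across genes). All 8 colorectal epithelial markers reached a TPM of 1 in at least 1 library, whereas 3 of 5 fibroblast markers (COL1A2, DCN, LUM), 2 of 4 endothelial markers (PECAM1, CDH5) and 2 of 4 leukocyte markers (PTPRC, CD3E) stayed below 1 in every library. The other leukocyte markers, CD14 and LYZ, reached 1 in some groups and are given below beside the results of SW480. The other fibroblast and endothelial markers also reached 1. COL1A1 had a mean of 16.2 TPM in HCT116 OX res, PDGFRB 1.93 TPM in SW480 5-FU res, and VWF and CLDN5 1.73 and 2.4 TPM in DLD-1 OX res. Not every line had all epithelial markers. VIL1 was at 0 in HCT116 OX res and WT cells, and KRT20 and LGALS4 had means below 1 in every group of SW480. Differences were tested with limma on log2(TPM + 1) over all genes that reached a TPM of 1 in 3 or more libraries of the fit, and are given as log2 differences ± SE. A gene rose or fell if its Benjamini-Hochberg adjusted p was under 0.05 over all genes tested, and it is called changed if the log2 difference was also beyond 1. As the material is bulk RNA, a higher level in every cell and a larger share of cells with the transcript cannot be told apart.

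The scale itself moved between groups. The median log2 difference of all genes, resistant minus WT, was 0.44 for 5-FU res and 0.36 for OX res in SW480, -0.03 and 0.13 in DLD-1, and 0.18 and 0.60 in HCT116. Transcripts of 77 ribosomal protein genes held 13.4%, 15.4% and 20.5% of the TPM in SW480 5-FU res, OX res and WT cells. Their share was 17.5%, 13.9% and 18.3% in the same groups of DLD-1, and 22.6%, 11.4% and 20.7% in those of HCT116. The FPKM sums of the libraries ran from 451767 to 804635. The part of these shifts in the results was not tested. Median-of-ratios scaling, which divides each library by its median ratio to a common reference, brings the median of all genes close to 0 and is given beside the counts below. It gave 1427 changed higher and 1858 changed lower of all genes in HCT116 OX res, against 3991 and 676 on the TPM scale. In HCT116 5-FU res it gave 1003 and 1077, against 1621 and 535 on the TPM scale. In SW480 it gave 1149 and 1125 in 5-FU res and 783 and 606 in OX res, against 2576 and 400, and 1930 and 171, on the TPM scale. In DLD-1 it gave 307 and 226 in 5-FU res and 283 and 154 in OX res, against 286 and 237, and 363 and 123, on the TPM scale.

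CDKN1A encodes p21, the inhibitor of cyclin-dependent kinases through which p53 arrests the cell cycle. It rose in all 6 comparisons of resistant with WT cells, and no resistant library overlapped its WT libraries. SW480 cells had 224, 239 and 215 TPM as 5-FU res and 137, 146 and 138 TPM as OX res, against 77.7, 72.7 and 76.8 TPM as WT. DLD-1 cells had 56.1, 52.6 and 55.1 TPM as 5-FU res and 82.5, 85.8 and 79.4 TPM as OX res, against 25.4, 27.3 and 27.1 TPM as WT. HCT116 cells had 762, 745 and 750.3 TPM as 5-FU res and 1605, 1477 and 1604 TPM as OX res, against 409, 393 and 401 TPM as WT. All 9 HCT116 libraries lay above all 18 libraries of the other lines, and the WT level of HCT116 was above every resistant level of SW480 and DLD-1. The log2 differences from WT were 1.56 ± 0.054 in SW480 5-FU res, 0.88 ± 0.054 in SW480 OX res, 1.01 ± 0.053 in DLD-1 5-FU res, 1.60 ± 0.053 in DLD-1 OX res, 0.91 ± 0.042 for HCT116 5-FU res and 1.96 ± 0.042 for HCT116 OX res. The largest adjusted p among the 6 was 3.07e-07, in SW480 OX res. In DLD-1 5-FU res the difference lay at the limit of 1 and was 0.98 without WT library 1 and 0.99 without 5-FU res library 1. The gene spanned 58.7-fold between its highest group mean, HCT116 OX res, and its lowest, DLD-1 WT, and no neighbouring groups in the order of the 9 means overlapped.

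MDM2, the ligase that marks p53 for degradation, was higher in all 9 HCT116 libraries than in any library of the other lines. SW480 cells had 13.8, 14.8 and 13.95 TPM as 5-FU res and 11.2, 10.5 and 11.2 TPM as OX res, against 8.67, 6.55 and 7.97 TPM as WT. DLD-1 cells had 22.6, 23.3 and 21.1 TPM as 5-FU res and 29.1, 33.8 and 32.4 TPM as OX res, against 24.7, 26.00 and 23.5 TPM as WT. HCT116 cells had 123, 113 and 128 TPM as 5-FU res and 191, 191 and 215 TPM as OX res, against 43.9, 50.1 and 49.4 TPM as WT. In HCT116 MDM2 rose by 1.32 ± 0.069 in 5-FU res and by 2.04 ± 0.069 in OX res. In SW480 it rose by 0.80 ± 0.10 in 5-FU res. In SW480 OX res the difference was 0.46 ± 0.10 (adjusted p = 0.00200), but -0.091 with quantile normalization and -0.30 once the trend on transcript length was removed. In DLD-1 it rose by 0.35 ± 0.070 in OX res, and the difference in 5-FU res, -0.14 ± 0.070, did not pass the test (adjusted p = 0.119) although the libraries did not overlap. An exon of MDM2 overlaps one of the carboxypeptidase gene CPM on the opposite strand, and whether the authors' counting used strand is not stated. The mean of that gene was 1.07 TPM or lower in all 9 groups.

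BBC3 encodes PUMA, a BH3-only protein that frees the effectors of mitochondrial apoptosis, and it moved in opposite directions in DLD-1 and in the other lines. SW480 cells had 12.9, 11.6 and 12.97 TPM as 5-FU res and 7.06, 8.68 and 6.64 TPM as OX res, against 4.29, 6.41 and 5.24 TPM as WT. DLD-1 cells had 24.5, 23.3 and 23.3 TPM as 5-FU res and 21.5, 22.4 and 18.02 TPM as OX res, against 26.7, 33.6 and 32.2 TPM as WT. HCT116 cells had 94.4, 90.8 and 82.3 TPM as 5-FU res and 99.8, 89.2 and 101 TPM as OX res, against 39.6, 30.01 and 31.8 TPM as WT. In DLD-1 it fell in both resistant groups, with log2 differences of -0.36 ± 0.094 (adjusted p = 0.00779) in 5-FU res and -0.56 ± 0.094 (adjusted p = 4.43e-04) in OX res, and its libraries did not overlap those of WT cells. In HCT116 it rose by 1.38 ± 0.093 and 1.49 ± 0.093, and in SW480 5-FU res by 1.11 ± 0.14. Over the alternative settings the SW480 5-FU res value ran from 0.494 to 1.23. In SW480 OX res the difference was 0.43 ± 0.14 (adjusted p = 0.0158). That call was lost without WT library 1 (0.31) and without OX res library 2 (0.33), and the difference was -0.13 with quantile normalization. DLD-1 WT and HCT116 WT libraries overlapped in level.

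BAX, the pore-forming effector of mitochondrial apoptosis, varied least of the 9, with 2.89-fold between its highest and lowest group means. SW480 cells had 206, 207 and 219 TPM as 5-FU res and 211, 233 and 229 TPM as OX res, against 189.8, 238 and 228 TPM as WT. DLD-1 cells had 184, 181 and 169.6 TPM as 5-FU res and 175, 201 and 171 TPM as OX res, against 154, 139 and 153 TPM as WT. HCT116 cells had 159, 156 and 151 TPM as 5-FU res and 326, 316 and 320.1 TPM as OX res, against 113, 114 and 106 TPM as WT. HCT116 OX res stood alone above all other groups, and HCT116 WT was the lowest of the 9. BAX rose in HCT116 by 0.48 ± 0.043 in 5-FU res and 1.52 ± 0.043 in OX res, and in DLD-1 by 0.26 ± 0.065 and 0.29 ± 0.065. In SW480 neither difference passed the test, at -0.046 ± 0.077 in 5-FU res (interval -0.22 to 0.13) and 0.044 ± 0.077 in OX res (interval -0.13 to 0.21). With median-of-ratios scaling both SW480 differences passed below 0, at -0.55 and -0.40, and the difference in DLD-1 OX res no longer passed (0.15, adjusted p = 0.064).

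FAS and TNFRSF10B encode death receptors, the receptor for FAS ligand and TRAIL receptor 2 (DR5), which start apoptosis from the cell surface. FAS was at 24.2, 33.5 and 27.9 TPM in SW480 5-FU res and 21.98, 18.6 and 23.96 TPM in SW480 OX res, against 18.7, 13.1 and 14.99 TPM in SW480 WT cells. It was at 7.06, 7.02 and 7.11 TPM in DLD-1 5-FU res and 10.4, 12.8 and 12.1 TPM in DLD-1 OX res, against 7.85, 5.97 and 6.31 TPM in DLD-1 WT cells. It was at 38.9, 38.5 and 36.7 TPM in HCT116 5-FU res and 61.5, 65.5 and 64.3 TPM in HCT116 OX res, against 13.8, 16.1 and 15.3 TPM in HCT116 WT cells. FAS thus overlapped between SW480 WT and HCT116 WT libraries, whereas no resistant library of SW480 reached those of HCT116 in the same group. It rose by 1.29 ± 0.065 and 2.01 ± 0.065 in HCT116 5-FU res and OX res, by 0.83 ± 0.15 in SW480 5-FU res and by 0.73 ± 0.10 in DLD-1 OX res. The difference in DLD-1 5-FU res was 0.072 ± 0.10 (adjusted p = 0.604). In SW480 OX res it was 0.45 ± 0.15 with 1 overlapping library (adjusted p = 0.0183). This last call was lost in 4 of the 6 fits that leave out a library, WT library 2 or 3 or OX res library 1 or 3 (lowest 0.34), and turned to -0.010 with quantile normalization.

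TNFRSF10B was at 36.9, 35.95 and 35.98 TPM in SW480 5-FU res and 44.2, 41.7 and 43.3 TPM in SW480 OX res, against 30.1, 23.9 and 26.7 TPM in SW480 WT cells. It was at 116, 120.1 and 108 TPM in DLD-1 5-FU res and 77.4, 80.9 and 80.7 TPM in DLD-1 OX res, against 76.9, 79.6 and 77.2 TPM in DLD-1 WT cells. It was at 107, 105 and 116 TPM in HCT116 5-FU res and 219, 217 and 238 TPM in HCT116 OX res, against 65.5, 68.6 and 67.03 TPM in HCT116 WT cells. SW480 was the lowest line in every group, whereas the 5-FU res libraries of DLD-1 and HCT116 overlapped. The transcript rose by 0.70 ± 0.052 and 1.73 ± 0.052 in HCT116 5-FU res and OX res, by 0.66 ± 0.080 in SW480 OX res and by 0.55 ± 0.048 in DLD-1 5-FU res. In SW480 5-FU res the difference of 0.42 ± 0.080 (adjusted p = 5.88e-04) was below the median of all genes and became -0.069 with median-of-ratios scaling. In DLD-1 OX res it was 0.032 ± 0.048 (adjusted p = 0.613), and -0.11 with that scaling. RHOBTB2, whose exons overlap on the opposite strand, rose by 0.78 in SW480 5-FU res, 0.47 in DLD-1 OX res, and by 0.37 and 0.72 in both resistant groups of HCT116, and its part in the TNFRSF10B values was not tested.

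SESN1 encodes sestrin 1, which restrains mTORC1 and limits oxidative stress. SW480 cells had 7.56, 6.63 and 5.60 TPM as 5-FU res and 4.25, 3.95 and 4.001 TPM as OX res, against 3.75, 2.84 and 3.56 TPM as WT. DLD-1 cells had 8.32, 6.45 and 7.40 TPM as 5-FU res and 12.2, 11.2 and 12.1 TPM as OX res, against 8.44, 9.26 and 9.82 TPM as WT. HCT116 cells had 13.3, 12.5 and 13.9 TPM as 5-FU res and 39.1, 42.2 and 42.4 TPM as OX res, against 7.67, 7.50 and 8.18 TPM as WT. HCT116 OX res was far above the other 8 groups, and in HCT116 the transcript rose by 2.27 ± 0.071 in OX res and by 0.69 ± 0.071 in 5-FU res. It rose by 0.79 ± 0.13 in SW480 5-FU res, where removing the trend on transcript length lost the call (0.23, adjusted p = 0.055). In SW480 OX res the difference was 0.22 ± 0.13 (adjusted p = 0.143), and -0.14 with median-of-ratios scaling. In DLD-1 the resistant groups parted, with -0.28 ± 0.095 in 5-FU res (adjusted p = 0.0294) and 0.34 ± 0.095 in OX res (adjusted p = 0.0111). The first call was lost without WT library 2 or 3 or 5-FU res library 2 or 3 (nearest to 0 at -0.20), and the second without WT library 1 (0.29). Both calls were also lost with median-of-ratios scaling (-0.26 and 0.21), with quantile normalization (-0.22 and 0.16) and with the length trend removed (-0.26 and 0.19). The call in 5-FU res was lost without the filter on low values (-0.28) and that in OX res with FPKM as deposited (0.19).

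ZMAT3 encodes a zinc-finger protein that binds RNA and regulates splicing, and TP53INP1 a nuclear protein that promotes p53-dependent death and autophagy. Among the 9, they showed the largest differences from WT in HCT116 cells of both resistant groups. ZMAT3 was at 5.73, 6.005 and 4.99 TPM in SW480 5-FU res and 11.8, 9.77 and 11.8 TPM in SW480 OX res, against 6.30, 4.79 and 5.77 TPM in SW480 WT cells. It was at 7.66, 7.42 and 6.93 TPM in DLD-1 5-FU res and 7.33, 6.27 and 6.36 TPM in DLD-1 OX res, against 6.33, 6.44 and 6.14 TPM in DLD-1 WT cells. It was at 26.1, 23.2 and 27.8 TPM in HCT116 5-FU res and 30.9, 30.98 and 37.05 TPM in HCT116 OX res, against 4.11, 4.33 and 4.29 TPM in HCT116 WT cells. HCT116 thus held both the lowest group, WT, and the highest, OX res, at 7.77-fold between their means. ZMAT3 rose there by 2.34 ± 0.090 in 5-FU res and 2.69 ± 0.090 in OX res, and only 0.428% and 1.01% of all genes tested had larger differences. In SW480 it rose by 0.87 ± 0.12 in OX res, a call that was lost once the trend on transcript length was removed (0.047), and differed by -0.0062 ± 0.12 in 5-FU res (adjusted p = 0.964). In DLD-1 neither difference passed the test, at 0.19 ± 0.087 in 5-FU res (interval -0.00078 to 0.38) and 0.064 ± 0.087 in OX res (interval -0.13 to 0.25). The value in 5-FU res passed with FPKM as deposited (0.19), with median-of-ratios scaling (0.21), with quantile normalization (0.26) and in limma without the trend on mean level (0.19).

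TP53INP1 was at 3.89, 3.76 and 3.90 TPM in SW480 5-FU res and 2.83, 3.05 and 3.46 TPM in SW480 OX res, against 0.642, 0.399 and 0.372 TPM in SW480 WT cells. It was at 2.56, 3.21 and 2.29 TPM in DLD-1 5-FU res and 2.76, 2.36 and 2.90 TPM in DLD-1 OX res, against 3.35, 3.55 and 2.43 TPM in DLD-1 WT cells. It was at 43.6, 38.4 and 43.7 TPM in HCT116 5-FU res and 46.97, 45.5 and 56.5 TPM in HCT116 OX res, against 6.82, 6.74 and 7.66 TPM in HCT116 WT cells. All 9 HCT116 libraries were above all 18 others, and the 6 resistant HCT116 libraries were above 38 TPM. The rise in HCT116 was 2.41 ± 0.090 in 5-FU res and 2.65 ± 0.090 in OX res. In SW480 the differences were 1.73 ± 0.11 in 5-FU res and 1.49 ± 0.11 in OX res, which are given as a description without a test. SW480 WT libraries were below 1 TPM, so in SW480 the gene passed the filter on low values only through its resistant groups, and with a pseudocount of 0.1 the differences were 2.82 and 2.52. In DLD-1 neither difference passed the test, at -0.15 in 5-FU res (interval -0.46 to 0.16) and -0.15 in OX res (interval -0.47 to 0.16). NDUFAF6, whose exons overlap on the opposite strand, differed from WT by -0.27 to 0.24 in the 6 comparisons. Its group means were 12.2 to 19.5 TPM, above those of TP53INP1 in every group of SW480 and DLD-1. The part of NDUFAF6 in the TP53INP1 values was not tested.

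**Figure D1:**
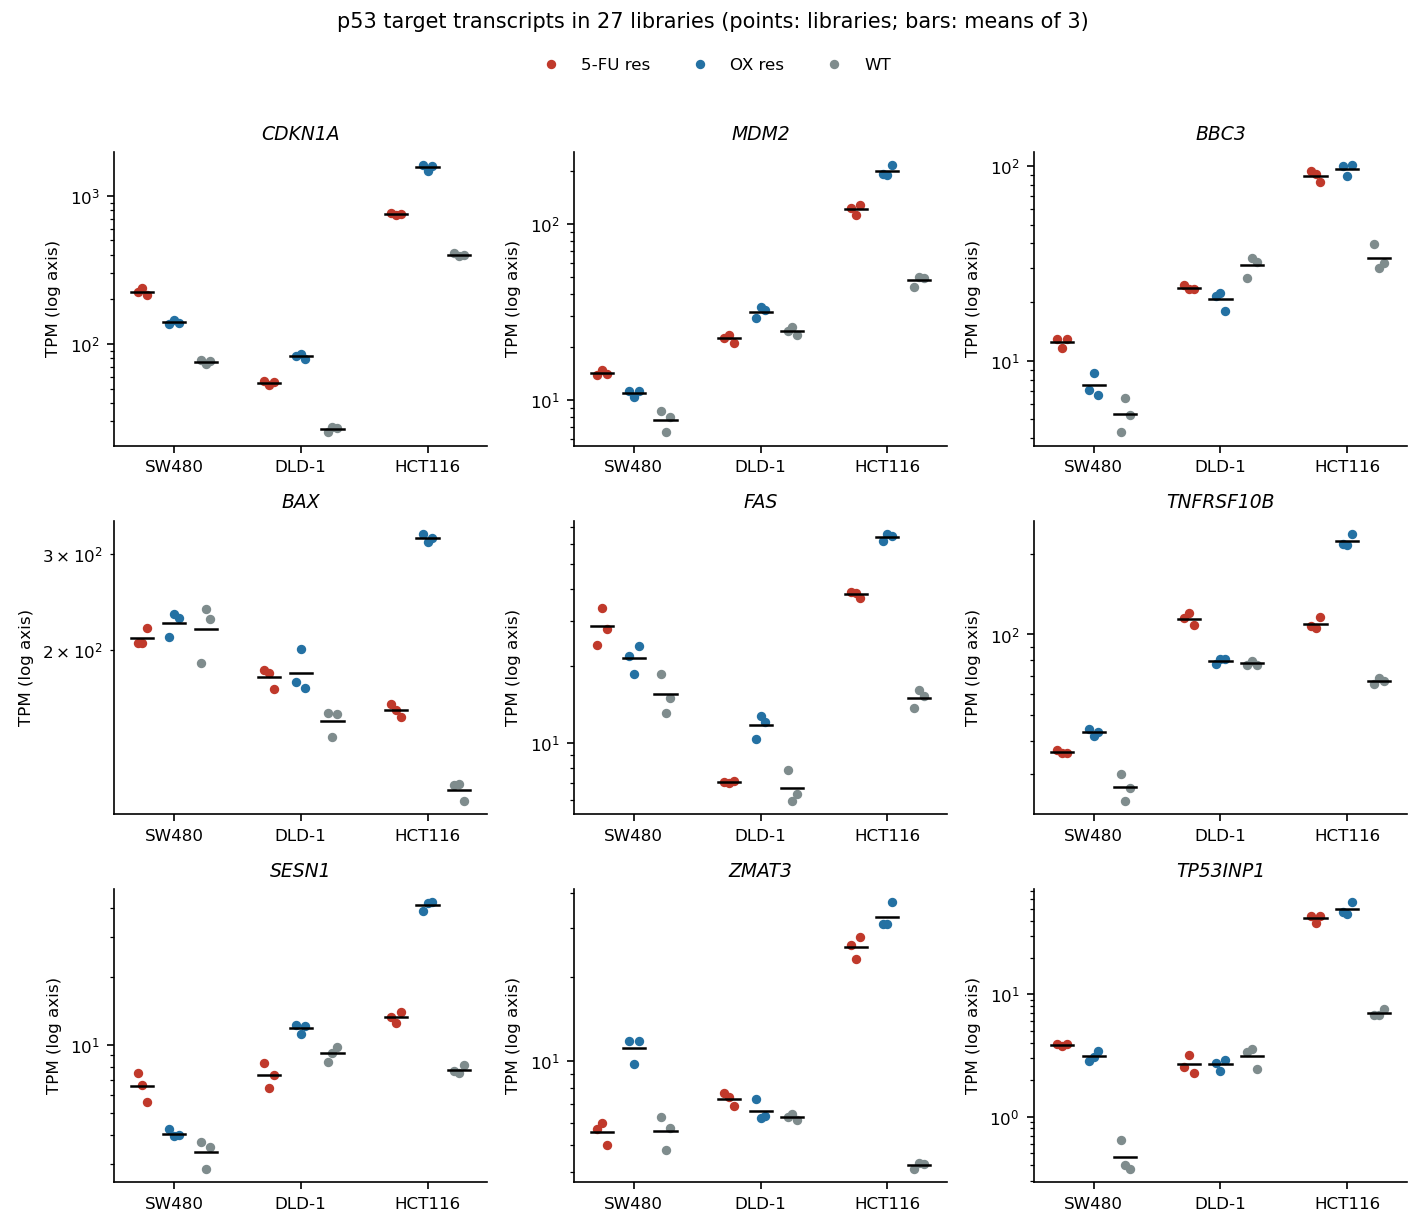
TPM (log axis) of the 9 p53 targets in each of 27 libraries (points) with the means of 3 libraries (bars), for 5-FU res, OX res and WT cells of SW480, DLD-1 and HCT116. For CDKN1A every HCT116 library lies above every SW480 and DLD-1 library, whereas for BAX the HCT116 WT cells have the lowest mean.

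The comparisons by line ask how many of the 9 targets differ between resistant and parental cells. All 9 rose in HCT116 5-FU res, where 47.3% of all genes tested rose, and all 9 in HCT116 OX res, where 68.1% of all genes did. Changed beyond 1 were MDM2, BBC3, FAS, ZMAT3 and TP53INP1 in 5-FU res, 5 of 9 against 11.6% of all genes, and all 9 in OX res, against 28.5%. In HCT116 OX res 5 of 6 tested epithelial markers fell as well and 3 changed, EPCAM to 68.2 TPM against 392.1 TPM in WT cells, CDH1 to 3.64 TPM against 29.02 TPM and KRT20. The summed level of the 8 epithelial markers was 4252 to 4553 TPM in OX res and 5672 to 5800 TPM in WT libraries. Of the 5 fibroblast markers COL1A1 alone was tested, at 16.2 TPM in OX res against 6.58 TPM in WT cells, while COL1A2 and DCN were at 0 in all 9 HCT116 libraries. In HCT116 5-FU res 2 of 6 epithelial markers rose and 2 fell, and COL1A1 was at 6.43 TPM. KRT20, counted in both resistant groups, had passed the filter on low values through its WT libraries, so its falls are a description. The part of these markers in the results was not tested. The median of the 9 log2 differences was 1.29 in 5-FU res and 2.01 in OX res, compared with 0.18 and 0.60 over all genes. With median-of-ratios scaling 9 of 9 rose in either group, where 35.6% and 39.5% of all genes rose, and 5 and 7 were changed. In HCT116 5-FU res the 144 values of the members under alternative settings, leaving out a library included, kept direction and an adjusted p under 0.05. So did the 144 in OX res. Not all stayed beyond 1. The lowest values were 0.671 for MDM2 in 5-FU res, and 0.842 for BBC3 and 0.861 for BAX in OX res.

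In SW480, TP53INP1 is left out of the counts, since it had passed the filter through the resistant groups alone. Of the other 8 members 6 rose in 5-FU res and 6 in OX res, compared with 61.7% and 57.4% of all genes tested, and 0 fell. These shares are near the background. Changed beyond 1 in 5-FU res were CDKN1A and BBC3, 2 of 8 against 18.3% of all genes, and in OX res 0 of 8 against 13.7%. Over the alternative settings the 5-FU res value of CDKN1A ran from 1.06 to 1.6. That of BBC3 ran from 0.494 to 1.23, so it was not beyond 1 in all settings. Of 6 tested epithelial markers 2 rose and 3 fell in 5-FU res, and 2 rose and 4 fell in OX res, among them CDH1, at 3.12 TPM in 5-FU res and 3.03 TPM in OX res, against 16.9 TPM in WT cells. The leukocyte markers CD14 and LYZ rose in both groups, CD14 at 4.47 TPM in 5-FU res and 2.72 TPM in OX res, against 1.17 TPM in WT cells, and LYZ at 6.61 and 4.86 TPM, against 1.53 TPM. PTPRC, which marks leukocytes in general, was at 0.033 TPM in 5-FU res and at 0 in OX res and WT cells. Of the fibroblast markers COL1A1 rose in 5-FU res and not in OX res. COL1A1 was at 2.84 TPM in 5-FU res against 1.03 TPM in WT cells, and PDGFRB at 1.93 TPM against 0.217 TPM. PDGFRB passed the filter on low values only through the 5-FU res libraries, so its levels are a description. The part of these markers in the SW480 results was not tested. With median-of-ratios scaling, and TP53INP1 counted, 6 rose and 2, BAX and ZMAT3, fell in 5-FU res, whereas 4 rose and 1, BAX, fell in OX res. These counts cover all 9 members, so they cannot be set beside those of 8 above. On that scale 34.3% and 32.7% of all genes rose, and 35.8% and 36.1% fell.

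In DLD-1, CDKN1A, BAX and TNFRSF10B rose and BBC3 and SESN1 fell in 5-FU res, where 20.5% of all genes rose and 25.9% fell. In OX res, CDKN1A, MDM2, BAX, FAS and SESN1 rose and BBC3 fell, where 38.7% of all genes rose and 11.2% fell. Changed beyond 1 was CDKN1A in either group, 1 of 9, against 2.12% and 2.7% of all genes. Of all genes tested in DLD-1, 2.18% and 0.824% had larger differences than CDKN1A in 5-FU res and OX res. Of 7 tested epithelial markers 1 rose and 5 fell in 5-FU res, and 3 rose and 4 fell in OX res. KRT20 was at 0.648 TPM in 5-FU res and 3.01 TPM in OX res, against 9.78 TPM in WT cells. KRT18 was at 7334 TPM in OX res against 3099 TPM in WT cells. The endothelial marker VWF was at 1.73 TPM in OX res against 0.228 TPM in WT cells. VWF passed the filter on low values only through the OX res libraries, so its levels are a description. CLDN5, the other endothelial marker tested, did not pass in either group. The part of these markers in the DLD-1 results was not tested. The medians of the 9 were 0.07 and 0.29, compared with -0.03 and 0.13 over all genes. With median-of-ratios scaling 4 rose and 1 fell in 5-FU res, and 3 rose and 2 fell in OX res, where 24.9% and 24.3% of all genes rose and 25.6% and 22% fell.

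**Figure D2:**
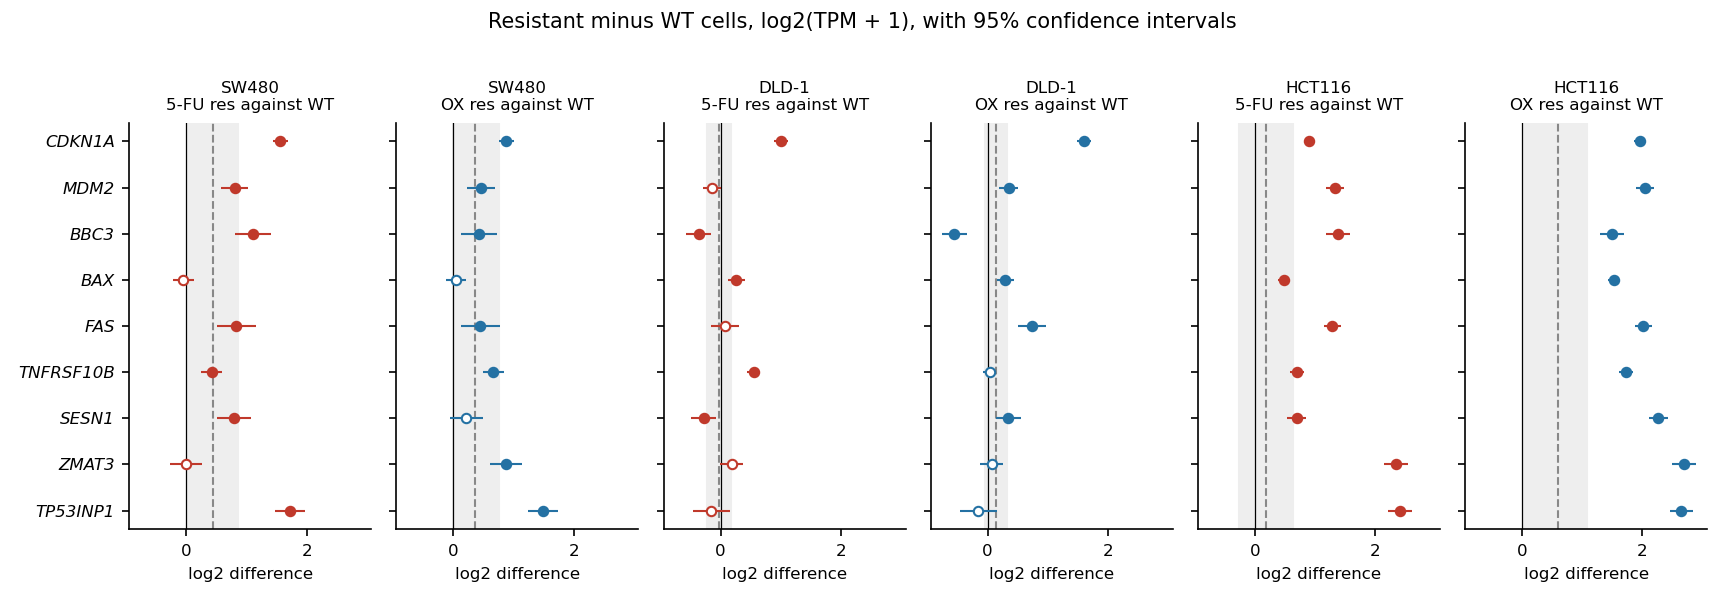
Log2 differences in log2(TPM + 1) between resistant and WT cells (x axis) of the 9 p53 targets (rows) in 6 comparisons, with 95% confidence intervals, filled points for adjusted p under 0.05, and the median (dashed line) and middle 50% of all genes tested (grey). The 9 HCT116 OX res points lie between 1.49 and 2.69, whereas in DLD-1 OX res CDKN1A at 1.60 stands apart from the other 8, between -0.56 and 0.73. TP53INP1 in SW480 is drawn as filled but is a description, since it passed the filter on low values only through the resistant groups.

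Whether the lines responded differently was tested as the difference of differences, the change of SW480 or DLD-1 minus that of HCT116, over all 27 libraries. For OX res, all 9 members gave lower values in SW480 than in HCT116, compared with 37.7% of all genes, and all 9 by more than 1, compared with 12.4%. The values ran from -1.06 ± 0.084 for TNFRSF10B to -2.05 ± 0.13 for SESN1. With median-of-ratios scaling 9 of 9 were still lower and 5 by more than 1. The shares of all genes on that scale are not given here, so these counts are a description. The value of TP53INP1, -1.16 ± 0.16, was -0.27 with a pseudocount of 0.1 (adjusted p = 0.32), and its SW480 WT level was below 1 TPM.

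DLD-1 OX res gave lower values than HCT116 OX res for 9 of 9 members, compared with 52.1% of all genes, and 8 of 9 were lower by more than 1, compared with 22.5%. They ran from -1.23 ± 0.096 for BAX to -2.80 ± 0.16 for TP53INP1. The exception was CDKN1A, at -0.36 ± 0.064 (interval -0.49 to -0.23), which became 0.065 with median-of-ratios scaling. CDKN1A thus rose by 1.60 in DLD-1 OX res and by 1.96 in HCT116 OX res, with a WT level that was 15.1-fold lower in DLD-1. With median-of-ratios scaling 8 of 9 members were lower, 6 of them by more than 1. These counts too are a description, without the shares of all genes on that scale.

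For 5-FU res, 6 of 9 members were lower in SW480 than in HCT116 and 1 was higher, compared with 20.6% and 42.3% of all genes. ZMAT3 at -2.35 ± 0.14 was the only one beyond 1, where 5.56% of all genes were lower by that much. CDKN1A was the higher one, at 0.66 ± 0.064 (adjusted p = 5.71e-09), and it rose by 1.56 in SW480 5-FU res and by 0.91 in HCT116 5-FU res. BBC3 at -0.28 ± 0.17 (interval -0.62 to 0.074) and SESN1 at 0.097 ± 0.13 (interval -0.18 to 0.38) did not pass. BBC3 passed without SW480 WT library 1 (-0.40) or HCT116 WT library 1 (-0.39). The value of FAS, -0.45 ± 0.17, no longer passed without SW480 WT library 1 (-0.32), SW480 5-FU res library 1 (-0.34) or HCT116 WT library 1 (-0.39). TP53INP1, at -0.68 ± 0.16, became 0.27 with a pseudocount of 0.1.

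Between DLD-1 and HCT116, 6 of 9 members were lower in 5-FU res, compared with 40.4% of all genes, and 5 of them by more than 1, compared with 13.4%. These 5 were MDM2 at -1.47 ± 0.11, BBC3 at -1.74 ± 0.17, FAS at -1.21 ± 0.17, ZMAT3 at -2.15 ± 0.14 and TP53INP1 at -2.56 ± 0.16. SESN1 followed at -0.98 ± 0.13. CDKN1A (0.10, interval -0.028 to 0.24), TNFRSF10B (-0.15, interval -0.32 to 0.028) and BAX (-0.22, interval -0.42 to -0.018) did not pass. BAX passed without DLD-1 WT library 2 (-0.27) or 5-FU res library 1 (-0.24), and CDKN1A passed at 0.35 with median-of-ratios scaling. The 4 sets of differences share the WT libraries of HCT116 and are not independent of each other.

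The levels of the lines were also set against each other within each group. In WT cells, 6 members were lower by more than 1 in SW480 than in HCT116, compared with 12.4% of all genes. They were CDKN1A at -2.39 ± 0.045, MDM2 at -2.49 ± 0.080, BBC3 at -2.47 ± 0.12, TP53INP1 at -2.46 ± 0.11, TNFRSF10B at -1.29 ± 0.060 and SESN1 at -1.01 ± 0.095. BAX was higher in SW480, at 0.96 ± 0.068, and ZMAT3 at 0.33 ± 0.096, while FAS did not pass the test (0.036, interval -0.21 to 0.28). In 5-FU res cells 6 members were lower in SW480 by more than 1, against 12% of all genes, and in OX res cells all but BAX were, 8 of 9 against 20.1%. The OX res differences reached -4.07 ± 0.080 for MDM2, whose mean was 18.2-fold lower in SW480.

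Between DLD-1 WT and HCT116 WT cells CDKN1A, at -3.86 ± 0.045, and FAS, at -1.06 ± 0.12, were lower by more than 1, 2 of 9 against 9.68% of all genes, and MDM2 (-0.92) and TP53INP1 (-0.98) were lower by less. The median of all genes was 0.31 higher in DLD-1 WT cells, and with median-of-ratios scaling 4 of 9 were lower by more than 1. That count is a description, as the share of all genes on that scale is not given here. BBC3 did not pass the test (-0.13, interval -0.37 to 0.12). On the TPM scale BAX, TNFRSF10B, SESN1 and ZMAT3 passed above 0, at 0.41, 0.21, 0.21 and 0.48. With median-of-ratios scaling the first 3 became -0.054, -0.25 and -0.21, and ZMAT3 0.084, while with the length trend removed ZMAT3 was at -0.50. The SESN1 call was also lost without WT library 1 or 2 of HCT116 or 2 or 3 of DLD-1 (lowest 0.17). In the resistant groups 6 members were lower by more than 1 in DLD-1 5-FU res (against 11.8% of all genes) and 8 in DLD-1 OX res (against 17.5%). TP53INP1 was 15.6-fold and 18.6-fold lower in DLD-1 5-FU res and OX res than in HCT116, and CDKN1A 13.8-fold and 18.9-fold lower.

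**Figure D3:**
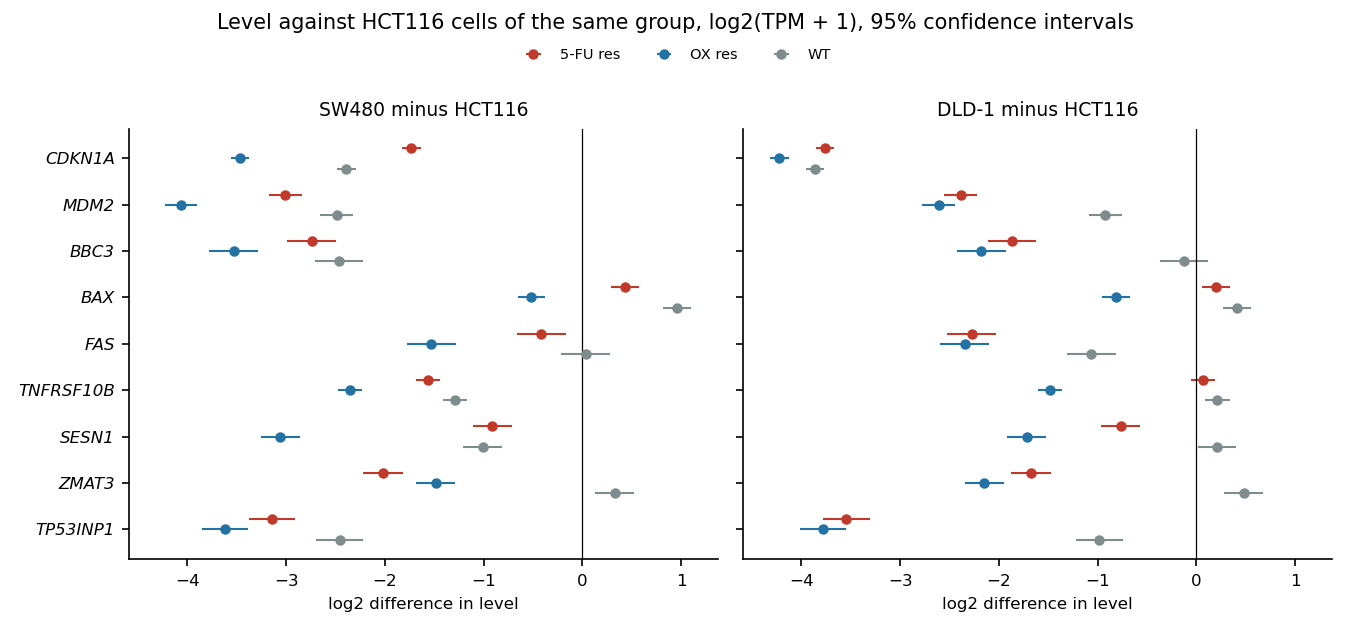
Log2 differences in level (x axis, log2(TPM + 1), 95% confidence intervals) of SW480 and DLD-1 against HCT116 cells of the same group, for the 9 p53 targets (rows) in 5-FU res, OX res and WT cells. For OX res all 9 values are below 0 in both lines, whereas for WT cells BAX and ZMAT3 lie above 0 in both, although with median-of-ratios scaling BAX is below 0 in DLD-1.

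Across the 9 group means of log2(TPM + 1), 35 of the 36 pairs of members had a positive Pearson r, with a median of 0.70 and a range of -0.09 to 0.97. The highest was MDM2 with BBC3 and the lowest BBC3 with BAX, and BAX had r of 0.55 or lower with every other member. These values describe 9 groups from 3 lines and carry no test, since groups of a line share its background. Of 13963 genes, those most like CDKN1A over the 9 groups were MARK4 (r = 0.992), PRMT2 (0.990) and LHX5 (0.977), and those most like MDM2 were ADAMTSL5 (0.991), NUTM2A (0.987) and CD44 (0.982). TP53INP1 was closest to CLHC1 (0.985), RRM2B (0.985) and PPM1D (0.976), of which RRM2B, a ribonucleotide reductase subunit, and PPM1D, a phosphatase that acts on p53, are known p53 targets. For the other 6 members the highest r was 0.959 to 0.984.

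A wider list of 71 p53 targets, none of them among the 9, was read in the same fits. In HCT116 OX res 64 of 69 tested rose and 4 fell, compared with 68.1% and 18.1% of all genes, with a median of 1.46, compared with 0.60. In HCT116 5-FU res 58 of 69 rose and 8 fell, compared with 47.3% and 27.5% of all genes, with a median of 0.61, compared with 0.18. In SW480 49 of 65 rose and 5 fell in 5-FU res, and 45 rose and 8 fell in OX res, with medians of 0.55 in both, compared with 0.44 and 0.36. Of all genes in SW480, 61.7% and 57.4% rose and 15.6% and 14.5% fell. In DLD-1 17 of 65 rose and 16 fell in 5-FU res, compared with 20.5% and 25.9% of all genes. In DLD-1 OX res 37 rose and 5 fell, compared with 38.7% and 11.2%, with medians of 0.0078 and 0.22, compared with -0.03 and 0.13. With median-of-ratios scaling 54 rose and 6 fell in HCT116 OX res, and 46 rose and 11 fell in HCT116 5-FU res, where 39.5% and 35.6% of all genes rose and 39.5% and 40.3% fell. That scaling gave 29 that rose and 20 that fell in 5-FU res and 30 and 21 in OX res of SW480, and 21 and 16 in 5-FU res and 27 and 13 in OX res of DLD-1. On that scale 34.3% and 32.7% of all genes rose in SW480 and 35.8% and 36.1% fell, and 24.9% and 24.3% rose in DLD-1 and 25.6% and 22% fell. In the difference of OX res changes from HCT116, 53 of 69 were lower in SW480 and 56 in DLD-1, compared with 37.7% and 52.1% of all genes.

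Among this list, the largest rises in HCT116 OX res were those of TRIM22, an antiviral ubiquitin ligase (217.9 TPM in OX res, 8.98 TPM in WT cells, log2 difference 4.46), GADD45A, a stress sensor of DNA damage (691 and 62.97 TPM, 3.44), and the sulfatase SULF2 (97.96 and 10.1 TPM, 3.15). In HCT116 5-FU res they were TNFRSF10D, a decoy receptor for TRAIL (63.6 TPM in 5-FU res, 15.9 TPM in WT cells, 1.94), RRM2B (88.5 and 25.02 TPM, 1.78) and PERP, a desmosomal membrane protein (289 and 86.7 TPM, 1.73). KITLG, the ligand of the receptor KIT, went the other way in HCT116, at 19.5 TPM in 5-FU res and 31.6 TPM in OX res, against 79.9 TPM in WT cells. In SW480 OX res KITLG was instead higher, at 10.1 TPM against 0.318 TPM in WT cells, having passed the filter on low values through the OX res libraries.

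GDF15, a stress-induced cytokine of the TGF-β family, led the wider list in SW480 5-FU res, at 73.9 TPM against 7.04 TPM in WT cells (log2 difference 3.22), and was at 36.03 TPM in SW480 OX res (2.204). In DLD-1 5-FU res it was at 810.2 TPM against 313 TPM in WT cells (1.37). PMAIP1, which encodes the BH3-only protein NOXA, was at 97.8 TPM in SW480 5-FU res and 67.5 TPM in SW480 OX res, against 19.4 TPM in WT cells, and at 79.6 TPM in DLD-1 5-FU res, against 27.6 TPM in WT cells. In DLD-1 OX res SERPINB5, a serpin of epithelial cells, was at 61.5 TPM against 11.1 TPM in WT cells (2.37). GDF15 and PMAIP1 are also known targets of the stress factor ATF4.

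Of 20 tested genes that regulate p53, 15 rose and 5 fell in HCT116 OX res, where 68.1% and 18.1% of all genes did, and 10 rose and 8 fell in HCT116 5-FU res, where 47.3% and 27.5% did. With median-of-ratios scaling 7 rose and 11 fell in OX res, and 9 rose and 10 fell in 5-FU res, where 39.5% and 35.6% of all genes rose and 39.5% and 40.3% fell. The balance of the list in OX res thus turned with the scale, as did that of all genes. The kinase ATM, which signals DNA breaks to p53, was at 19.1 TPM in HCT116 5-FU res, against 2.78 TPM in WT cells (2.40), and at 14.2 TPM in SW480 5-FU res, against 5.54 TPM in WT cells (1.24). The acetyltransferase EP300 and the kinase HIPK2, which modify p53, rose by 1.205 to 1.84 and 1.12 to 1.95 in the 4 comparisons of SW480 and HCT116. The part of the scale shift and of transcript length in the values of ATM, EP300 and HIPK2 was not tested. CDKN2A, which encodes the MDM2 inhibitor ARF beside p16, was lower in HCT116 5-FU res, at 28.2 TPM against 63.9 TPM in WT cells (-1.15).

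A last list held 20 cell cycle genes that are repressed when p21 keeps the DREAM complex on their promoters. All 20 fell in HCT116 OX res, compared with 18.1% of all genes, each by more than 1, with a median of -2.07, and of -2.68 with median-of-ratios scaling. CDC20, the activator of the anaphase-promoting complex, was at 53.8 TPM in HCT116 OX res, against 434.9 TPM in WT cells, and the mitotic kinase PLK1 at 23.7 TPM, against 160.9 TPM in WT cells. In HCT116 5-FU res 15 fell and 2 rose, compared with 27.5% and 47.3% of all genes, with a median of -0.69. In DLD-1 5-FU res 16 fell and 0 rose, with a median of -0.47, compared with 25.9% of all genes that fell. In DLD-1 OX res, where CDKN1A had risen by 1.60, all 20 rose instead, compared with 38.7% of all genes, with a median of 0.45, and 18 still rose with median-of-ratios scaling. In SW480 11 rose and 4 fell in 5-FU res, and 9 rose and 2 fell in OX res, compared with 61.7% and 57.4% of all genes that rose and 15.6% and 14.5% that fell. With median-of-ratios scaling 4 rose and 13 fell, and 3 rose and 15 fell, where 34.3% and 32.7% of all genes rose and 35.8% and 36.1% fell. The difference of OX res changes from HCT116 was above 1 for 20 of 20 genes in SW480 and in DLD-1, compared with 7.13% and 6.58% of all genes, also with median-of-ratios scaling.

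**Figure D4:**
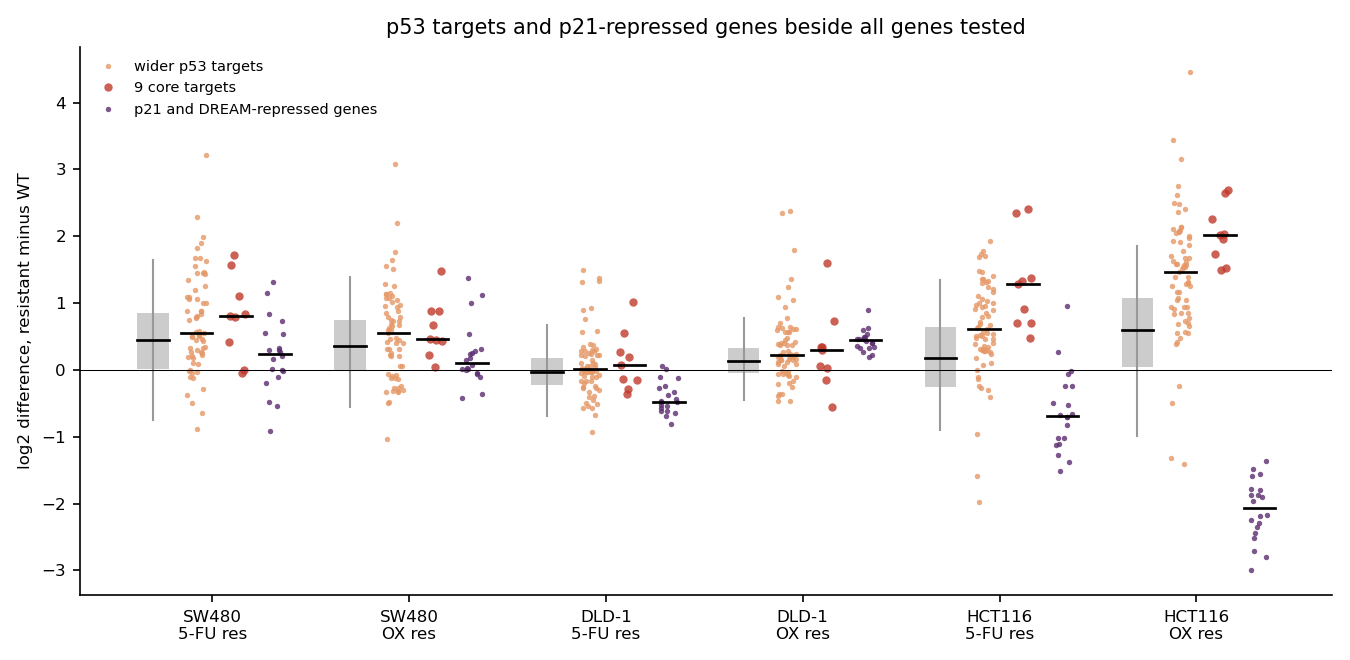
Log2 differences between resistant and WT cells (y axis) in 6 comparisons for the wider p53 targets, the 9 core targets and the cell cycle genes repressed through p21 and DREAM (points, with medians as black bars), beside all genes tested (grey box from the lower to the upper quartile, line from the 5th to the 95th percentile). In HCT116 OX res the 9 core targets have a median of 2.01 and the 20 cell cycle genes one of -2.07.

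The canonical transcripts of the 9 members run from 795 bases for BAX, whose group means spanned the smallest range, to 7490 bases for MDM2 and 8936 bases for ZMAT3. With the trend of each library on transcript length removed, an alternative chosen after seeing the data, all 9 still rose in both resistant groups of HCT116, with 4 changed in 5-FU res and 9 in OX res. Of all genes 34.7% and 39.9% rose there, and 5.01% and 9.63% were changed higher. In SW480, with TP53INP1 counted, 5 rose and 1 fell in 5-FU res, and 3 rose and 2 fell in OX res, where 35.9% and 31.2% of all genes rose and 35.3% and 33.2% fell. These SW480 counts cannot be set beside those given without TP53INP1 above. In DLD-1 3 rose and 1 fell in 5-FU res, and 4 rose and 2 fell in OX res, where 27.1% and 25.3% of all genes rose and 25.9% and 23.7% fell. CDKN1A rose in all 6 comparisons here too, by 1.25 and 0.70 in SW480, 1.04 and 1.47 in DLD-1, and 0.94 and 1.53 in HCT116 for 5-FU res and OX res. The part of transcript length in the differences was not tested beyond this.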

How the data were processed

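RNA-seq libraries (single reads of 100 bases, stranded mRNA kit) were made from 27 RNA samples of SW480, DLD-1 and HCT116 cells. The authors trimmed the reads, aligned them to hg19 with TopHat2 2.1.1 on Bowtie2 2.2.8 and SAMtools 0.1.18, and estimated expression with Cufflinks. The submitters' processing notes name Cuffdiff 2.2.1 instead. The authors deposited FPKM per gene symbol, while the number of mapped reads is not given in any source used here. Depth is therefore unknown, and precision rests on the spread between libraries.

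FPKM were divided by the library sum to give TPM, and 26255 symbols common to all files were kept. Tests used limma 3.58.1 (lmFit, eBayes with trend, R 4.3.3) on log2(TPM + 1), per line over its 9 libraries for resistant minus WT cells, and over all 27 for contrasts between lines. Genes that reached a TPM of 1 in 3 or more libraries entered, 14039 in SW480, 13467 in DLD-1, 14010 in HCT116 and 15801 over all. Fold changes on this scale understate the change of low genes. The 9 members and the lists (wider p53 targets, p53 regulators, cell cycle genes and cell type markers) were chosen with earlier results of these data known, and the lists were written from general knowledge. Of a list, the 3 members with the largest differences beyond 1 in each direction could be named. Some items are not reported here.

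The test was tried on simulated data that were simpler than the real libraries. A small set of genes with a clear level was changed in 1 group. All groups otherwise shared the same means, with independent normal noise and no shift of scale. The rates below therefore do not extend to scale shifts or to genes near the filter. In HCT116 5-FU res against WT, with 14010 genes, 99% of genes changed by 1.2 on the log2 scale and 100% of those changed by 2 were recovered, and 5.77% of calls were false. For the response of SW480 minus HCT116 in 5-FU res, with 15801 genes, the values were 98%, 100% and 5.26%. Alternatives were FPKM as deposited, median-of-ratios scaling, quantile normalization, a pseudocount of 0.1, no filter, a filter on a mean TPM of 5, only the groups compared, a replicate block, and each library left out. Removal of the transcript length trend per library (lowess, span 0.3) was added after seeing the data, and 22422 of 26255 symbols had a length. Start sites, exons and sequence came from the GRCh37 genome and GENCODE annotation lifted to it. The limit of 3 mismatches for the p53 full site was raised after matches at 1 or fewer had been seen.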

Additional observations from a re-analysis of the deposited data

Results flagged for a closer look

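The difference between lines in the change from WT was tested for 9 genes and 4 sets, and 23 values were beyond 1 with a limma adjusted p under 0.05. In SW480 minus HCT116 for 5-FU res the only such gene was ZMAT3 (-2.35). For OX res in SW480 minus HCT116 all 9 members were such genes, CDKN1A at -1.08, MDM2 at -1.58, BBC3 at -1.07, BAX at -1.48, FAS at -1.57, TNFRSF10B at -1.06, SESN1 at -2.05, ZMAT3 at -1.82 and TP53INP1 at -1.16. In DLD-1 minus HCT116 for 5-FU res there were 5, MDM2 at -1.46, BBC3 at -1.74, FAS at -1.21, ZMAT3 at -2.15 and TP53INP1 at -2.56. For OX res in DLD-1 minus HCT116 there were 8, MDM2 at -1.69, BBC3 at -2.05, BAX at -1.23, FAS at -1.28, TNFRSF10B at -1.70, SESN1 at -1.93, ZMAT3 at -2.63 and TP53INP1 at -2.80. All 23 values are below 0. That of TP53INP1 in SW480 OX res, where the gene was at 0.471 TPM in WT cells, became -0.27 with a pseudocount of 0.1 (limma adjusted p = 0.32). The 23 values are differences between lines, which differ in more than p53.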

How the results depend on the processing

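Of 150 counts of members recomputed under alternatives other than leaving out a library, 142 stayed within 1.5 times the count reported. Of 1344 values of single members, 1238 kept their direction and side of the threshold, 32 no longer passed, 23 newly passed and 51 changed sign. TP53INP1, left out of the SW480 counts above, was the only member changed in SW480 OX res. The count there was 0 with genes under a mean TPM of 5 left out and 0 with the length trend removed. The count lower by more than 1 in DLD-1 WT than in HCT116 WT was 4 with FPKM as deposited, with median-of-ratios scaling, with quantile normalization and with the length trend removed. The difference in change from HCT116 was beyond 1 for 5 members in SW480 OX res with median-of-ratios scaling, and for 2 in SW480 5-FU res with quantile normalization. The shares of all genes under these settings are not given here. With 1 library left out, the changed members were 2 to 3 in SW480 5-FU res, 1 in SW480 OX res and DLD-1 OX res, 0 to 1 in DLD-1 5-FU res, 5 and 9 in HCT116 5-FU res and OX res. Those that differed in change from HCT116 were then 1 and 8 to 9 in SW480, and 5 to 6 and 8 in DLD-1, for 5-FU res and OX res. Those that differed in level were 6 to 7, 8 and 5 to 7 in SW480, and 6, 8 and 2 to 3 in DLD-1, for 5-FU res, OX res and WT.

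Sign changes from WT were as follows, and their cause was not tested. With FPKM as deposited they were TNFRSF10B in SW480 5-FU res (-0.014), SESN1 (-0.11) and BAX (-0.39) in SW480 OX res, and ZMAT3 (-0.052) and TNFRSF10B (-0.11) in DLD-1 OX res. With median-of-ratios scaling the same were -0.069, -0.14, -0.40, -0.057 and -0.11. With quantile normalization they were, in SW480 OX res, FAS (-0.010), MDM2 (-0.091), BBC3 (-0.13) and SESN1 (-0.30), and in DLD-1 OX res ZMAT3 (-0.088) and TNFRSF10B (-0.13). With the length trend removed they were TNFRSF10B in SW480 5-FU res (-0.084), MDM2 (-0.30) and SESN1 (-0.42) in SW480 OX res, and ZMAT3 (-0.076) and TNFRSF10B (-0.11) in DLD-1 OX res. With 1 library left out, SW480 5-FU res gave -0.0996 to 0.0678 for ZMAT3 and -0.143 to 0.0182 for BAX, and SW480 OX res gave -0.0537 to 0.108 for BAX. In SW480 OX res MDM2, BBC3 and FAS lost their calls with median-of-ratios scaling.

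Between lines, with FPKM as deposited and with median-of-ratios scaling, the response was -0.089 and -0.077 for SESN1 in SW480 5-FU res, 0.025 and 0.026 for BAX and 0.092 and 0.095 for TNFRSF10B in DLD-1 5-FU res, and 0.038 and 0.065 for CDKN1A in DLD-1 OX res. With quantile normalization it was -0.13 for SESN1 in SW480 5-FU res and -0.077 for CDKN1A in DLD-1 5-FU res, and TNFRSF10B in DLD-1 5-FU res was 0.14 with the length trend removed. TP53INP1 in SW480 5-FU res was 0.27 with a pseudocount of 0.1. Levels of DLD-1 WT against HCT116 WT, with FPKM as deposited and with median-of-ratios scaling, were -0.059 and -0.054 for BAX, -0.20 and -0.21 for SESN1, and -0.26 and -0.25 for TNFRSF10B. With quantile normalization SESN1 was -0.39 and ZMAT3 -0.074, and with the length trend removed TNFRSF10B was -0.30, ZMAT3 -0.50 and SESN1 -0.53. Levels in DLD-1 5-FU res against HCT116 5-FU res were -0.034, -0.028 and -0.065 for BAX with FPKM as deposited, median-of-ratios scaling and quantile normalization. TNFRSF10B there was -0.16, -0.16 and -0.21, and -0.16 with the length trend removed. FAS in SW480 WT against HCT116 WT was -0.0949 to 0.147 with 1 library left out.

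Whether equal replicate numbers pair the libraries could not be settled from their scatter. Same-numbered resistant and WT libraries deviated together with r of -0.14 to 0.16, above 0.1 in 5 of 18 pairs. Libraries of unlike number gave r of -0.194 to 0.156. In HCT116 OX res the same-numbered values were 0.075, 0.162 and 0.154, and those of unlike number ran from -0.149 to -0.011. With a replicate block the changed members were 3 and 1 in SW480, TP53INP1 counted. They were 1 and 1 in DLD-1 and 5 and 9 in HCT116, each for 5-FU res and OX res. The fit on only the groups compared was not run for contrasts between lines. Depth is unknown, so limits set by depth could not be given.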
